A study of Mus musculus with 58 samples.

Results

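Voltage-gated calcium and sodium channels open when the membrane depolarizes and let Ca2+ or Na+ into the cell. The genes described here are the mouse genes whose symbols start with Cacna, Cacnb or Cacng, or with Scn followed by a digit, and which were present in all 6 count tables of the series. This rule gave 40 genes, of 54532 genes in the 2 tables of bulk RNA-seq and of 18411 genes in the 4 tables of ribosome footprints and lysate RNA. They comprise 10 Cacna1 genes, 4 Cacna2d genes, 4 Cacnb genes, 8 Cacng genes, 10 sodium channel alpha genes and 4 sodium channel beta genes. No antisense gene or pseudogene had a symbol that met the rule.

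All libraries were made from mouse striatum, on the strain labelled B6129S. In the 3g line, del/+ mice carry premature stop mutations made with CRISPR/Cas9 in 1 copy of each of Taok2, Sez6l2 and Mvp, so these genes are mutated and not removed. In the 16p11.2 line, del/+ mice lack 1 copy of the segment that corresponds to human 16p11.2, which holds those 3 genes among others. Wild-type (wt) littermates were the controls in each line, the mice were 10 to 14 weeks old, and both changes are constitutive, so that no cell type was singled out. Bulk RNA-seq had 4 libraries per sex and genotype in each line. Footprints and lysate RNA came from males, with 3 del/+ and 3 wt mice of the 3g line and 3 del/+ and 4 wt mice of the 16p11.2 line. Each animal gave 1 footprint library, which samples the stretches of mRNA covered by ribosomes, and 1 RNA library from the same lysate.

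In a calcium channel, the alpha1 subunit (Cacna1 genes) forms the pore, the cytoplasmic beta subunit (Cacnb) and the alpha2delta subunit (Cacna2d) bring it to the membrane and shape its gating. Alpha1 subunits are grouped by their current: L-type (Cacna1c, Cacna1d, Cacna1f, Cacna1s), P/Q-type (Cacna1a), N-type (Cacna1b), R-type (Cacna1e) and the low-voltage-activated T-type (Cacna1g, Cacna1h, Cacna1i). Most Cacng genes are named for their likeness to the gamma subunit of the muscle calcium channel (Cacng1), but Cacng2, Cacng3, Cacng4, Cacng5, Cacng7 and Cacng8 encode auxiliary subunits of AMPA-type glutamate receptors. In a sodium channel, the alpha subunit forms the pore and the beta subunits modulate it and bind other cells. Scn1a, Scn2a, Scn3a and Scn8a are the alpha genes of the brain, Scn4a that of skeletal muscle, and Scn9a, Scn10a and Scn11a those of peripheral sensory neurons.

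Total counts were 11711099 to 65529807 per bulk RNA-seq library of the 3g line, 26592767 to 41300015 per bulk RNA-seq library of the 16p11.2 line, 15102576 to 19122488 per lysate RNA library and only 342052 to 678130 per footprint library. Levels are given as CPM, counts relative to the library total after TMM scaling within a table, and they are not divided by transcript length, so they are compared between samples of 1 gene and not between genes. All 10 markers of spiny projection neurons, the main neurons of striatum, were detected in every group of libraries. Sez6l2 was at 197 to 232 CPM in the 8 3g del/+ libraries and at 284 to 347 CPM in the 8 3g wt libraries. Taok2 had a log2 fold change of -0.02 in each sex of this line in bulk RNA-seq. By qPCR of striatum, the paper reported lower mRNA of Taok2, Sez6l2 and Mvp in the mutant mice. Taok2 of the 16p11.2 line was lower in del/+ by 0.98 (males) and 1.06 (females) on the log2 scale.

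Some libraries stood apart or went against their labels. The library labelled 3g wt male 17 lay outside the range of the other 7 3g wt libraries at 76.3% of the 15071 genes with a mean of at least 1 CPM in wt RNA-seq, where the other 3g wt libraries did so at 10.5% to 36.3%. Its summed CPM was 923 for 5 cortical excitatory neuron markers and 10608 for 5 oligodendrocyte markers, against 36.4 to 307 and 3953 to 5794 in the other 3 3g wt males. The library labelled 16p11.2 del/+ female 1 held 0.44 CPM of Xist, the X-inactivation transcript, and 36.6 CPM of the Y-linked Ddx3y, where the other 7 libraries labelled female of this line held 315 to 875 CPM of Xist and no Ddx3y count. Counts of channel genes called in comparisons that use either library, and the fold changes of some genes, are given with and without it. Those genes were not chosen as the ones it moved most.

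Of the 40 channel genes, 33 had a mean of at least 1 CPM over the 16 wt bulk RNA-seq libraries (8 of each line) and 7 did not. The 7 low genes were the retinal and muscle L-type genes Cacna1f and Cacna1s, Cacng6, the muscle gene Scn4a, the sensory neuron genes Scn10a and Scn11a, and Scn7a, with means of 0.056 CPM (Scn4a) to 0.82 CPM (Scn7a). A further 4 genes had means of 1 to 10 CPM, 7 genes of 10 to 100 CPM, and 22 genes of 100 CPM or more.

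**Figure D1:**
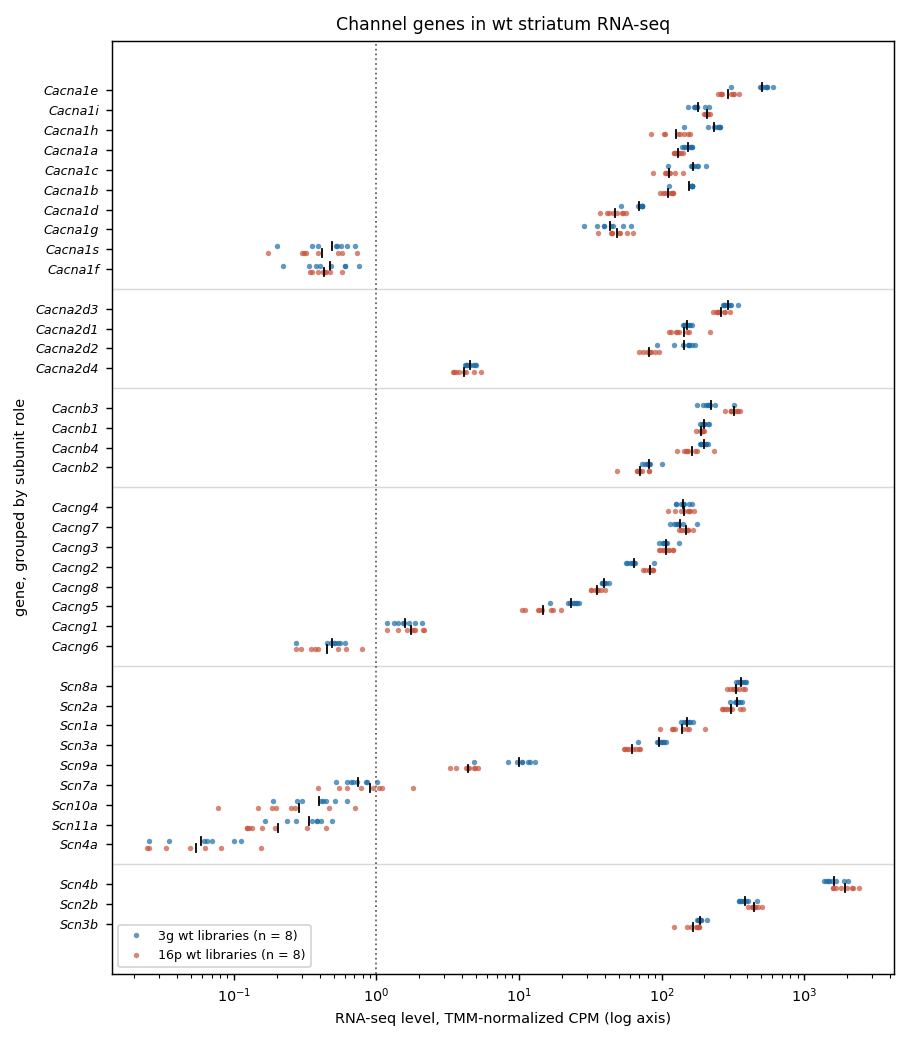
Level of 38 of the 40 channel genes in wt striatum RNA-seq, as TMM-normalized CPM on a log axis, with 1 point per wt library (8 of the 3g line in blue, 8 of the 16p11.2 line in red), a black bar at each line's mean, and genes grouped by subunit role. Libraries with no count (some of Scn4a) are not drawn on the log axis, and the dotted line marks 1 CPM, with 31 of the means drawn at or above it. Most groups of blue points have 1 point that lies among the red ones.

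Among the pore genes of calcium channels, Cacna1e (R-type) was measured at 507 ± 87.9 CPM in the 3g wt libraries and 293 ± 36.7 CPM in the 16p11.2 wt libraries (mean ± SD, n = 8 each). The T-type gene Cacna1i was at 180 ± 19.7 and 208 ± 6.68 CPM, and Cacna1h at 231 ± 38.5 and 127 ± 26.1 CPM in the same order. Of the alpha2delta genes, Cacna2d3 was at 293 ± 24.5 and 259 ± 23.5 CPM and Cacna2d1, a binding protein of gabapentin, at 151 ± 8.3 and 143 ± 34.3 CPM. Of the beta genes, Cacnb3 was at 224 ± 44.3 and 321 ± 25.8 CPM and Cacnb1 at 199 ± 9.43 and 190 ± 6.75 CPM. Cacng4 and Cacng7, both AMPA receptor auxiliary subunits, were at 142 ± 13.1 and 134 ± 18.5 CPM in 3g wt and at 144 ± 18.9 and 148 ± 11.1 CPM in 16p11.2 wt. Without the library labelled 3g wt male 17, the 3g wt means (n = 7) were 535 ± 38.4 CPM for Cacna1e, 244 ± 17.1 CPM for Cacna1h and 209 ± 18.8 CPM for Cacnb3.

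Among sodium channel genes, Scn8a was at 362 ± 19.1 CPM in 3g wt and 334 ± 34.4 CPM in 16p11.2 wt, Scn2a at 337 ± 18.8 and 306 ± 38.9 CPM, and Scn1a, which is known for its role in parvalbumin interneurons, at 151 ± 8.69 and 139 ± 32 CPM. Scn4b, a beta subunit known to be rich in striatum, was at 1621 ± 233 and 1936 ± 311 CPM, with 1379 CPM in the lowest and 2420 CPM in the highest of the 16 wt libraries. It was at 1562 ± 176 CPM in 3g wt without the library labelled 3g wt male 17. Scn2b was at 384 ± 38.8 and 449 ± 29.5 CPM. In the lysate RNA of wt males, Scn4b was at 300 ± 27.7 CPM in the 3g line (n = 3) and 281 ± 82 CPM in the 16p11.2 line (n = 4). Bulk and lysate libraries were prepared and counted differently, so the assays' levels are not compared.

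The lines were sequenced and normalized as separate tables, so a difference in level between their wt mice cannot be told apart from a difference between the preparations. With all 8 libraries a line, no channel gene of the 33 had ranges that were apart, against 7.63% of the 15071 genes. Without the library labelled 3g wt male 17, 14 of the 33 were apart, against 40.9% of all genes. The 11 that were then higher in 3g wt included 6 pore genes of calcium channels (Cacna1a, Cacna1b, Cacna1c, Cacna1d, Cacna1e and Cacna1h), Cacna2d2 and Scn3a, and the 3 that were lower included Cacnb3 and Cacng2. Of all 15071 genes, 3846 were then higher and 2324 lower in 3g wt, so such a difference was common and not particular to channel genes. The library labelled 3g wt male 17 was outside the range of the other 3g wt libraries for 26 of the 33 channel genes, and for 22 of these it lay within the range of the 16p11.2 wt libraries. Its Cacna1e level was 308 CPM, where the other 3g wt libraries spanned 489 to 606 CPM and the 16p11.2 wt libraries 250 to 349 CPM.

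The footprints were next set against the RNA of the same lysates in wt mice, which asks how many ribosome footprints a gene had for its RNA, relative to all genes. Whether the counts cover coding sequence or whole transcripts is not given, and its part in differences between genes was not tested. The T-type pore genes and Cacna2d2 and Cacng8 had more footprints than their RNA, and the auxiliary genes Cacnb4 and Cacnb2 and the sodium channel genes Scn2a and Scn2b had fewer. In the 3g wt mice, 12 of 32 channel genes tested were higher and 8 were lower in footprints at an adjusted p under 0.05 (quasi-likelihood test of edgeR, Benjamini-Hochberg adjusted over all genes tested), where 20.6% of all 13963 genes tested were higher and 23.7% lower, 44.3% in either direction. In the 16p11.2 wt mice, 15 of 34 were higher and 5 lower, where 21.4% of all 13682 genes were higher and 25.2% lower, 46.6% in either direction. The median log2 difference of the channel genes was 0.26 (3g) and 0.42 (16p11.2), against -0.012 and -0.028 over all genes tested.

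Of the 32 channel genes tested in both lines, 15 were called in both, 11 of them higher and 4 lower in both, which is 75% of the 20 called in each line, and 29 of the 32 (90.6%) had the same sign. Of the 13443 genes tested in both lines, 35.1% were called in both and 83.5% had the same sign. Those called in both were 78.3% of those called in the 3g line and 75.3% of those called in the 16p11.2 line. The lines share no animal here, but their libraries were prepared in the same way. With the animal as a block, since both libraries came from 1 lysate, 18 genes were called in the 3g line and 22 in the 16p11.2 line, with 15 in both, of which 12 were among the former 15. Of all genes, 38.3% were then called in the 3g line, 46.1% in the 16p11.2 line and 32.5% in both. The scale is relative. With total count scaling, the median of all genes moved to 0.61 in the 3g line and 0.20 in the 16p11.2 line, the calls among channel genes became 21 higher and 1 lower (3g) and 19 higher and 2 lower (16p11.2), and those among all genes became 37.5% higher and 10.6% lower (3g) and 26.5% higher and 17.3% lower (16p11.2). Set against the all-gene median, no channel gene changed its direction under RLE or total count scaling in either line. A change of scaling shifts all genes by nearly the same amount, so this outcome was close to fixed in advance. It is no check of the directions. The directions that follow are relative to the median gene.

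All 3 T-type pore genes were higher in footprints in both lines. For Cacna1g, the log2 ratio of footprint CPM to lysate RNA CPM was 1.77, 1.61 and 1.99 in the 3g wt mice and 1.59, 2.002, 2.003 and 2.40 in the 16p11.2 wt mice. Its fitted difference was 1.85 (3g, adjusted p = 2.2e-05 by edgeR) and 2.11 (16p11.2, adjusted p = 2.6e-08). For Cacna1h, the ratio was 1.33, 1.26 and 1.34 in the 3g mice and 1.55, 1.43, 1.07 and 1.16 in the 16p11.2 mice, with fitted differences of 1.36 and 1.44. Cacna1i had fitted differences of 1.26 and 1.33. Every one of the 7 wt mice had a ratio of at least 0.986 for each of these 3 genes, with 31 to 119 footprint counts per gene and library behind it.

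The high-voltage-activated pore genes lay lower. Cacna1a was higher in footprints in both lines, by 1.01 and 0.73, as were Cacna1b (0.51 and 0.68) and Cacna1d (0.53 and 0.42). With the animal as a block, Cacna1b lost its call in the 3g line (0.50, adjusted p = 0.066 by edgeR) and Cacna1d in both (0.52 and 0.41, adjusted p = 0.068 and 0.051). Cacna1c (0.10 and 0.17) and Cacna1e (-0.09 and 0.24) were not called in either line. Cacna1f and Cacna1s were too low to be tested.

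**Figure D2:**
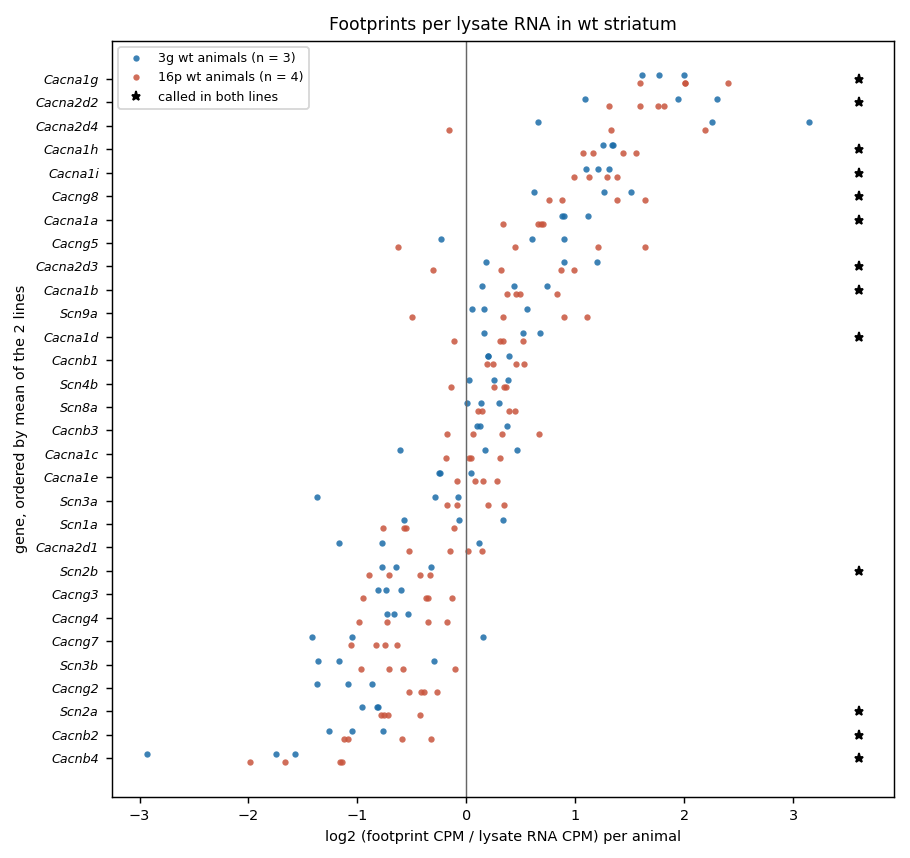
Log2 ratio of footprint CPM to lysate RNA CPM in each wt animal (3 of the 3g line in blue, 4 of the 16p11.2 line in red) for 30 of the 32 channel genes tested in both lines, ordered by the mean of the lines' fitted differences; stars mark the 13 of them called in both lines. Animals with no footprint count for a gene (1 of Cacna2d4) are not drawn. The points of Cacna1g, Cacna1h and Cacna1i all lie to the right of 0, and those of Cacnb4, Cacnb2 and Scn2a all to the left.

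Among the alpha2delta genes, Cacna2d2 was higher in footprints by 1.92 (3g, adjusted p = 3.5e-05 by edgeR) and 1.74 (16p11.2, adjusted p = 2.0e-08), with ratios of 2.30, 1.94 and 1.09 in the 3g mice and 1.81, 1.59, 1.76 and 1.31 in the 16p11.2 mice. Cacna2d3 was higher by 0.88 and 0.66. Cacna2d1 was not called in either line (-0.53 and 0.04). Cacna2d4 was called in the 3g line (2.13), on 3 to 8 footprint counts per library, and not in the 16p11.2 line (0.87).

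The beta genes went both ways. Cacnb4 was lower in footprints by 1.95 (3g, adjusted p = 4.6e-05 by edgeR) and by 1.34 (16p11.2, adjusted p = 9.8e-07), with ratios of -2.93, -1.58 and -1.75 in the 3g mice and -1.98, -1.16, -1.15 and -1.66 in the 16p11.2 mice. Cacnb2 fell by 0.95 and 0.67. Cacnb1 (0.31 and 0.49) was called in the 16p11.2 line alone, and Cacnb3 (0.25 and 0.37) in neither.

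Of the Cacng genes, Cacng8 was higher in both lines, by 1.25 and 1.29. Cacng2 (-1.03 and -0.27), Cacng3 (-0.66 and -0.29) and Cacng4 (-0.58 and -0.39) were called lower in the 3g line only, and Cacng7 (-0.46 and -0.68) in the 16p11.2 line only. The difference between the lines was not tested. Among 3g wt mice, Cacng7 had 248 footprint counts in library RIBO-300 and 87 and 64 in the others. Its 3g difference was -1.17 to -0.20 when each animal was left out. With the animal as a block, Cacng7 was also called in the 3g line (-0.69, adjusted p = 0.044 by edgeR) and Cacng4 in the 16p11.2 line (-0.41, adjusted p = 0.021), while Cacng5, called in the 16p11.2 line without it, was not (0.96, adjusted p = 0.051).

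Among sodium channel genes, Scn2a was lower by 0.81 (3g, adjusted p = 0.0028 by edgeR) and 0.54 (16p11.2, adjusted p = 0.016), with ratios of -0.95, -0.82 and -0.81 and of -0.43, -0.79, -0.76 and -0.72. Scn8a, the other alpha gene with many counts, was at 0.21 and 0.41, called in the 16p11.2 line only, and Scn1a at -0.04 and -0.37, called in neither. Of the beta subunits, Scn2b was lower (-0.51 and -0.44), Scn3b lower in the 3g line only (-0.83 and -0.38), and Scn4b called in neither (0.27 and 0.39). With the animal as a block, Scn2b was no longer called in the 3g line (-0.52, adjusted p = 0.052 by edgeR), and Scn1a (-0.36, adjusted p = 0.041), Scn3b (-0.41, adjusted p = 0.035) and Scn4b (0.35, adjusted p = 0.0070) were called in the 16p11.2 line.

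Channel partners, a list of 30 genes whose products bind, place or regulate these channels or conduct beside them, had, with TMM scaling, 7 higher and 13 lower of 28 tested in the 3g line and 6 higher and 13 lower of 27 tested in the 16p11.2 line, with medians of -0.65 and -0.54. Among all genes, 20.6% were higher and 23.7% lower in the 3g line, and 21.4% and 25.2% in the 16p11.2 line. The lower ones included Fgf12, Fgf13 and Fgf14, which bind the tail of sodium channels (-1.45, -1.45 and -2.05 in the 3g line, -1.51, -1.55 and -0.86 in the 16p11.2 line), and Unc79, a subunit of the sodium leak channel complex (-2.19 and -2.09). Sptbn4, a spectrin of the axon initial segment, was higher (1.29 and 1.36).

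The effect of genotype was then tested in each line, sex and assay. No channel gene was called at an adjusted p under 0.05 in any of the 10 comparisons of del/+ with wt. In bulk RNA-seq of the 3g line, 0% of all genes were called in males and 0.00526% in females, and in that of the 16p11.2 line 0.106% in males and 0.144% in females. At an unadjusted p under 0.05, edgeR gave 0 of 39 channel genes in males (1.44% of all genes) and 3 of 39 in females (11% of all genes) of the 3g line, and 2 of 38 in males (5.82% of all genes) and 6 of 37 in females (4.47% of all genes) of the 16p11.2 line. DESeq2 called no channel gene in these comparisons either. The 95% confidence interval of the fold change lay within 1.5-fold of no change for 30 of 39, 33 of 39, 25 of 38 and 30 of 37 genes, in the same order and it reached further for the others.

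**Figure D3:**
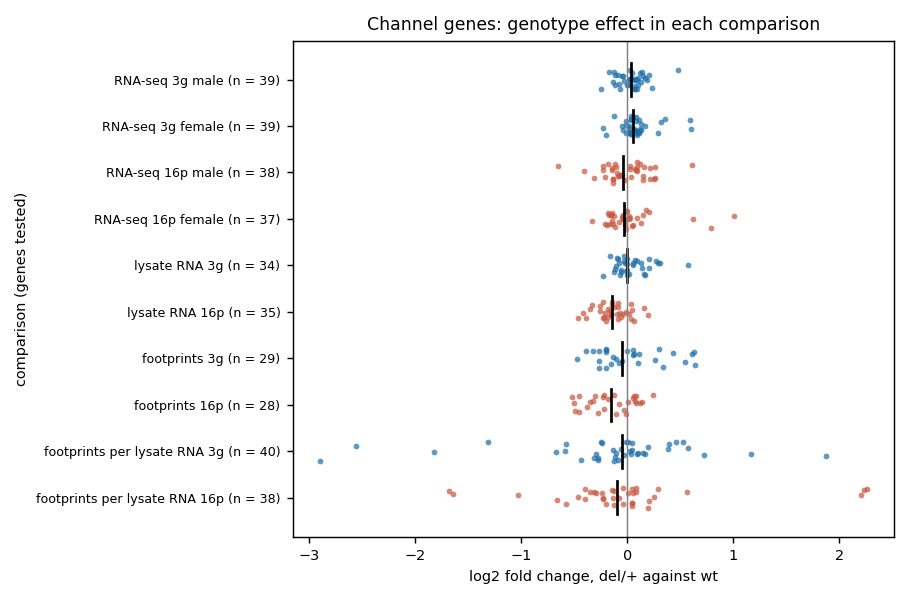
Log2 fold change of del/+ against wt for the channel genes tested in each of the 10 comparisons of genotype (number of genes in parentheses; 3g line blue, 16p11.2 line red), with 1 point per gene and a black bar at their median; the vertical scatter within a comparison has no meaning. Medians lie between -0.15 and 0.05, no gene was called, and the points spread most in footprints per lysate RNA, where genes with few counts are included.

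Among the genes with the highest levels in bulk RNA-seq, Scn4b was at 1614, 1401, 1464 and 1586 CPM in 3g del/+ males and 2032, 1428, 1891 and 1379 CPM in wt males, with 2032 CPM in the library labelled 3g wt male 17, and at 1660, 1819, 1496 and 1802 CPM in del/+ and 1496, 1579, 1685 and 1477 CPM in wt females. In the 16p11.2 line it was at 2304, 1013, 1895 and 1111 CPM in del/+ and 1605, 1667, 2198 and 1802 CPM in wt males. There, 2 del/+ males lay below and 1 above all wt males. The groups of Scn4b overlapped, with log2 fold changes of -0.14 ± 0.13 (SE) in males and 0.13 ± 0.06 in females of the 3g line, and of -0.19 ± 0.25 in males and 0.01 ± 0.19 in females of the 16p11.2 line. Without the library labelled 3g wt male 17 it was -0.04 ± 0.11 in 3g males, and without that labelled 16p11.2 del/+ female 1 it was 0.14 ± 0.18 in 16p11.2 females.

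The R-type pore gene Cacna1e was at 616.8, 557.5, 502.8 and 465.8 CPM in 3g del/+ males and 307.6, 540.5, 606.1 and 500.6 CPM in wt males, the 307.6 CPM being the library labelled 3g wt male 17. In 16p11.2 males it was at 272.9, 293.7, 291.9 and 505.7 CPM in del/+ and 266.9, 308.1, 318.3 and 262.2 CPM in wt, so that 1 del/+ library was high and the other 3 lay within the wt range. Its log2 fold changes were 0.15 ± 0.19 (3g males), 0.08 ± 0.04 (3g females), 0.26 ± 0.19 (16p11.2 males) and -0.02 ± 0.12 (16p11.2 females). In 3g males its sign turned without the library labelled 3g wt male 17 (-0.03 ± 0.10), and in 16p11.2 females it was -0.08 ± 0.12 without that labelled 16p11.2 del/+ female 1. Of the alpha2delta genes, Cacna2d3 had log2 fold changes of -0.05, 0.02, -0.09 and -0.04 in the same order, with an SE of 0.05 to 0.12. The AMPA receptor auxiliary gene Cacng4 had -0.09, -0.01, -0.21 and -0.12, with an SE of 0.05 to 0.14. Scn2a had 0.01, 0.09, 0.03 and -0.03, with an SE of 0.04 to 0.11. Without the same libraries, the 3g male and 16p11.2 female values were -0.08 and 0.03 for Cacna2d3, -0.03 and -0.03 for Cacng4 and -0.03 and -0.07 for Scn2a. Cacna2d3 in females and Scn2a in males thus turned sign.

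In 3g males without the library labelled 3g wt male 17, 0 of 39 channel genes were called (0% of all genes) and 0 had an unadjusted p under 0.05 (3.03% of all genes), and their median moved from 0.04 to -0.01. In 3g females, the 3 genes with an unadjusted p under 0.05 were Scn8a, Scn1a and Cacnb2, with log2 fold changes of 0.13, 0.12 and 0.11. All del/+ female libraries of this line were shallower (24332636 to 36821127 counts) than all its wt female libraries (42289823 to 65529807 counts). The summed CPM of the cortical excitatory neuron markers was 165 to 645 (median 477) in del/+ and 116 to 585 (median 161) in wt females. The part of depth or of cortical tissue in these values was not tested. Scn8a was at 410, 410, 397 and 387 CPM in del/+ and at 359, 371, 355 and 390 CPM in wt females, so the ranges overlapped (adjusted p = 0.30 by edgeR, 2-sided exact permutation p = 0.057, where 0.029 was the smallest possible). Those of Scn1a overlapped as well (exact permutation p = 0.086). Cacnb2 was at 82.0 to 94.9 CPM in del/+ and 79.2 to 81.8 CPM in wt females, without overlap (adjusted p = 0.39 by edgeR, exact permutation p = 0.029). Exact permutation tests, here and below, were run only on genes with an unadjusted edgeR p under 0.05 in the same libraries.

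In the 16p11.2 line, Cacng3 had the smallest p of the channel genes in females and an unadjusted p under 0.05 in males. Cacng3, an AMPA receptor auxiliary subunit, lies at chr7:122671744-122769393 (mm10), 4.1 Mb from Taok2 in the deleted segment, and so on the chromosome that carries the deletion. Its level in females was 86.8, 97.3, 84.7 and 75.7 CPM in del/+ and 120, 112, 102 and 97.0 CPM in wt. In males it was 94.996, 95.5, 81.3 and 91.4 CPM in del/+ and 103, 111, 120 and 95.6 CPM in wt. All del/+ males were below all wt males, the closest by 95.5 against 95.6 CPM, while in females the highest del/+ library lay just above the lowest wt library.

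The log2 fold change of Cacng3 was -0.33 ± 0.08 in females (SE, adjusted p = 0.63 by edgeR) and -0.23 ± 0.10 in males (adjusted p = 0.74), and -0.34 in females without the library labelled 16p11.2 del/+ female 1. The exact permutation test (2-sided, 4 against 4) gave p = 0.057 in females and 0.029 in males, the latter the smallest this design allows. In lysate RNA of the 16p11.2 line, Cacng3 was at 83.1, 81.6 and 66.6 CPM in del/+ and 82.2, 83.1, 91.8 and 65.6 CPM in wt mice, with a log2 fold change of -0.06 (95% confidence interval -0.34 to 0.21). In the 3g line its log2 fold change was -0.01 in females and -0.12 in males, and -0.01 in males without the library labelled 3g wt male 17. Its difference passed no threshold after adjustment in any comparison, and it is described because of its p in the 16p11.2 line, after its values were seen.

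**Figure D4:**
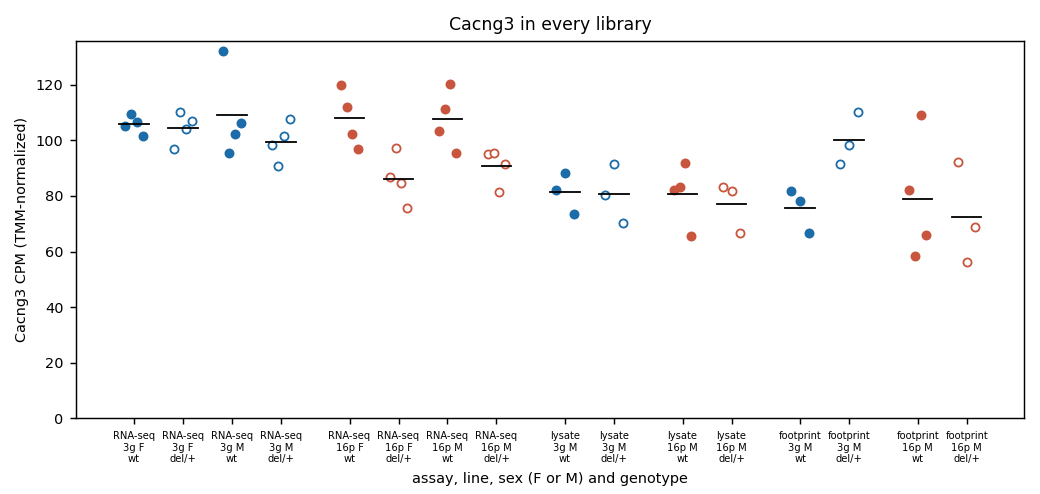
TMM-normalized CPM of Cacng3 in every library, by assay, line, sex (F or M) and genotype; filled points are wt, open points del/+, blue the 3g line, red the 16p11.2 line, and black bars group means. The open red points of RNA-seq (75.7 to 97.3 CPM) lie mostly below the filled ones (95.6 to 120 CPM), and those of lysate RNA overlap them.

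The other 16p11.2 female genes with an unadjusted p under 0.05 were Scn3b (-0.21), Cacng2 (-0.13) and Scn3a (-0.18), which were lower in del/+, and the low genes Cacna1s (1.00, at 0.17 to 0.81 CPM over the 8 libraries) and Scn7a (0.79). Without the library labelled 16p11.2 del/+ female 1, 4 of 37 channel genes (6.11% of all genes) had such a p, namely Cacna1s, Cacng3, Scn3a and Scn3b, and none was called (0.12% of all genes). In 16p11.2 males the second gene was Scn9a, at 5.05, 5.20, 6.50 and 7.48 CPM in del/+ and 3.29, 4.87, 4.27 and 3.62 CPM in wt, a log2 fold change of 0.61 ± 0.19 (SE, adjusted p = 0.74 by edgeR). The groups did not overlap in males (exact permutation p = 0.029, the smallest possible), but in females del/+ libraries held 7.53, 3.22, 4.06 and 6.13 CPM and wt libraries 5.18, 4.42, 4.44 and 4.88 CPM. The 7.53 CPM was the library labelled 16p11.2 del/+ female 1. The other del/+ female libraries, at 3.22 to 6.13 CPM, lay on both sides of the wt values.

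The genotype by sex interaction, which asks whether the effect of genotype differed between females and males, called no channel gene in the 3g line (0 of 39, 0% of all genes; unadjusted 0 of 39, 2.69% of all genes) or in the 16p11.2 line (0 of 38, 0% of all genes; unadjusted 1 of 38, 4.33% of all genes). The 1 gene was Cacna1s, with a mean of 0.45 CPM over wt libraries. Without the library labelled 3g wt male 17, the 3g counts were 0 called (0%) and 0 unadjusted (3.48%). Without the library labelled 16p11.2 del/+ female 1, the 16p11.2 counts were 0 called (0%) and 2 unadjusted (6.42%), Cacna1s and Scn9a.

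In lysate RNA of males, no channel gene was called in the 3g line (0 of 34, against 0.0209% of all genes) or in the 16p11.2 line (0 of 35, against 0.133%), and 2 genes of each had an unadjusted p under 0.05 (4.92% and 4.41% of all genes). In the 3g line Cacng7, an AMPA receptor auxiliary subunit, was at 352.2, 438 and 396 CPM in del/+ and 377, 293 and 291 CPM in wt mice, so that the groups overlapped (log2 fold change 0.31 ± 0.13, SE, adjusted p = 0.94 by edgeR; exact permutation p = 0.2, where 3 against 3 cannot go below 0.1).

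In the 16p11.2 line, the 2 genes were Cacnb3 and the L-type pore gene Cacna1d. Cacnb3 was at 48.3, 39.3 and 40.8 CPM in del/+ and 63.0, 51.3, 50.9 and 59.1 CPM in wt, and Cacna1d at 34.4, 35.6 and 35.5 CPM against 42.9, 39.2, 40.1 and 42.6 CPM. Neither pair of groups overlapped, with log2 fold changes of -0.39 and -0.23 and an adjusted p of 0.99 for each (edgeR); the exact permutation p was 0.057, the smallest that 3 against 4 allows. Of the 35 channel genes tested in 16p11.2 lysate RNA, 28 had a lower mean in del/+, with a median of -0.14 on the log2 scale, against 0.0016 over all genes, of which 49.6% were lower. Leaving out each animal in turn gave 27 to 31 lower and medians of -0.16 to -0.10. Bulk RNA-seq of 16p11.2 males, from other libraries, had 20 of 38 lower and a median of -0.04. The genes of a list are not independent of each other, and whether fewer neurons or less channel RNA per neuron goes with such a value cannot be told apart in bulk tissue; the summed CPM of the spiny projection neuron markers was 1548 to 2197 in del/+ and 1590 to 2412 in wt lysates.

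In footprints, no channel gene was called in the 3g line (0 of 29, against 0.0132% of all genes) or in the 16p11.2 line (0 of 28, against 0.117%). The footprint libraries were shallow, and the 95% confidence interval lay within 1.5-fold of no change for only 4 of 29 and 8 of 28 genes. In the 3g line the 3 del/+ libraries were all deeper (527917 to 678130 counts) than the 3 wt libraries (342052 to 422918 counts), and the part of depth in the values was not tested. At an unadjusted p under 0.05 there were 2 genes in the 3g line (7.97% of all genes). Scn2b was at 270, 324 and 270 CPM in del/+ and 151, 224 and 167 CPM in wt, and Cacna2d1 at 291, 213 and 224 CPM in del/+ and 118, 204 and 128 CPM in wt. Neither pair overlapped (log2 fold changes of 0.61 and 0.63, adjusted p = 0.47 and 0.52 by edgeR, exact permutation p = 0.1 for each, the smallest possible). Groups were also apart, with a larger edgeR p, for Cacnb4, Cacng3 and Scn2a (higher in del/+) and for Cacna1a and Cacnb1 (lower). How often this occurred among all genes was not computed. The cortical excitatory neuron markers summed to 594 to 903 CPM in del/+ and 350 to 842 CPM in wt footprints, and their part was not tested.

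In the 16p11.2 footprints the 1 gene with an unadjusted p under 0.05 (6.15% of all genes) was Scn8a, at 132, 189 and 165 CPM in del/+ and 221, 188, 260 and 265 CPM in wt, ranges that overlapped by 1 library of each (log2 fold change -0.52, adjusted p = 0.69 by edgeR). In these footprints 19 of 28 channel genes were lower in del/+, with a median of -0.15, and all genes had 50.9% lower. Leaving out each animal in turn gave 17 to 22 lower and medians of -0.23 to -0.10, with -0.10 and 17 lower without the animal of library RIBO-504. They came from the same animals and lysates as the lysate RNA and are no independent measure of it.

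Footprints per lysate RNA, for which the test was of genotype by assay, had no channel gene called in the 3g line (0 of 40, 0% of all genes) or in the 16p11.2 line (0 of 38, 0.00664% of all genes). With an unadjusted p under 0.05 there was 1 gene in each line (7.67% and 6.24% of all genes). In the 3g line it was Cacna2d1, whose log2 ratio of footprints to lysate RNA was 0.28, -0.11 and 0.26 in del/+ and -1.17, 0.11 and -0.77 in wt mice, with overlap (0.72 ± 0.28, SE, adjusted p = 0.57 by edgeR). In the 16p11.2 line it was Cacng2, at -0.67, -1.20 and -0.95 in del/+ and -0.39, -0.53, -0.41 and -0.27 in wt mice, with no overlap (-0.57 ± 0.27, SE, adjusted p = 0.79 by edgeR).

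The 30 channel partners had no called gene in any of the 10 comparisons of genotype. In 3g females, 7 of 30 had an unadjusted p under 0.05, where 11% of all genes did, and in the other bulk comparisons 0 to 2 of 30 did.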

How the data were processed

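Bulk RNA-seq, ribosome footprints and lysate RNA of striatum were analysed from the deposited whole-number counts per Ensembl gene. For bulk RNA-seq the authors used the bcbio-nextgen pipeline, with HTSeq and mm10 named in the submitters' processing notes. The notes name Bowtie2 and mm39 for the footprints and lysate RNA. The annotation, and whether footprint counts cover coding sequence or whole transcripts, are not given in the sources used here. Libraries of the bulk tissue were made after removal of ribosomal RNA, although the labels call the molecule polyA RNA.

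Symbols were matched for 54409 of 54532 and 18377 of 18411 genes. Genes were kept with filterByExpr by group, scaled with TMM and tested with edgeR 4.0.16 (quasi-likelihood, R 4.3.3, limma 3.58.1), with Benjamini-Hochberg adjustment over all genes tested and calls at an adjusted p under 0.05 with no minimum fold. Footprints per lysate RNA were tested in 1 fit over both kinds of library. The scripts were tested on simulated data. Intervals are 95% confidence intervals of the fits. Genes with an unadjusted edgeR p under 0.05 were also compared with 2-sided exact permutation tests on the CPM of the same libraries. Genes were thus selected by their edgeR p, and the permutation p is no independent support. Labels give no source of replicates beyond separate samples of bulk RNA, so p-values measure the spread between these samples. No pair of libraries of 1 group was alike within counting noise (chi-square per degree of freedom of at least 2.48).

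Footprint and lysate RNA libraries were paired by the animal number in their labels, and their deviations from the group means correlated at 0.046 to 0.126. Alternatives were DESeq2 1.42.0, RLE or total count scaling, no filter, all 16 libraries of a line in 1 fit, a block and leaving out libraries.

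The genes, the lists and the alternatives were chosen with earlier results of these data known. Described one by one were the 3 (alpha1, sodium alpha) or 2 (other roles) genes of highest mean CPM in each role group, every gene called in a comparison of genotype, and the 3 highest and 3 lowest in wt footprints per lysate RNA. The plan ranked levels per kilobase, but no transcript lengths were used here. Other genes were named after their values were seen. Some genes of the set are counted but their own results are not reported here. The values without the libraries labelled 3g wt male 17 and 16p11.2 del/+ female 1 were added after the data were seen.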

Additional observations from a re-analysis of the deposited data

Results flagged for a closer look

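In groups of 4 libraries (bulk RNA-seq, and lysate RNA and footprints of 16p11.2 wt mice), 6 values of channel genes lay far from the other 3 libraries of their group, all in bulk RNA-seq, by a gap of more than 0.829 of the group's range. This was looked for in 260 pairs of 26 genes and a group, and chance gives about 1 in 20 groups of 4. In the 16p11.2 line, Cacna1e was at 505.7 CPM in del/+ male 4 (272.9 to 293.7 CPM in the others), Cacna2d1 at 219 CPM in wt male 4 (112 to 129 CPM in the others) and Scn7a at 1.81 CPM in wt male 4 (0.94 to 1.09 CPM in the others). In the 3g line, Cacnb3 was at 235 CPM in del/+ male 33 (193 to 198 CPM in the others) and Scn3b at 207 CPM in wt male 26 (184 to 187 CPM in the others). Wt female 39 of that line held 125 CPM of Cacng4 (140 to 143 CPM in the others). No gene moved in opposite directions without overlap in 2 groups under the same contrast.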

How the results depend on the processing

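Calls of channel genes in the comparisons of genotype stayed at 0 under DESeq2, RLE scaling, no filter, the fit of all 16 libraries and the replicate block. Leaving out each library gave 0 to 1 in 3g females (1 without wt female 39), 0 to 1 in 3g lysate RNA (1 without the animal of library RIBO-302) and 0 in the other 8. In the wt assay difference, leaving out each animal gave 13 to 16 calls in the 3g line against 20, with 13 without the animal of library RIBO-301, and 14 to 20 in the 16p11.2 line. With the replicate block (the animal), 18 and 22 channel genes were called. Of the genes chosen to be described one by one, Cacna1e (0.54), Cacna2d1 (0.083), Cacng4 (0.044), Cacng7 (0.21), Scn1a (0.58) and Scn2b (0.11) changed sign with total count scaling in the 3g line, through the shift of the all-gene median. Sign changes of other channel genes are not listed here. Scn1a of the 3g line was at -0.27 to 0.17 when each animal was left out. Cacna2d1 of the 16p11.2 line was at -0.072 without a filter and -0.051 to 0.10 when each animal was left out; for both genes the cause was not tested.

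Counts of all genes called moved more. DESeq2 called 1 gene in 3g males (0 in edgeR), 117 in 3g females (1), 32 in 16p11.2 males (19), 49 in 16p11.2 females (26), 13 in 3g lysate RNA (3), 31 in 16p11.2 lysate RNA (19), 11 and 15 in 3g and 16p11.2 footprints (1 and 7), 16 and 4 in footprints per lysate RNA (0 and 1) and 3 in the 16p11.2 interaction with sex (0). Without a filter there were 158 in 3g females, 45 in 16p11.2 females, 9 in 3g lysate RNA, 127 and 43 in footprints and 1 and 2 in footprints per lysate RNA. The fit of all 16 libraries gave 1 in 3g males. Leaving out each library gave 1 to 175 in 3g females, 3 to 12 and 10 to 19 in lysate RNA, 0 to 24 and 2 to 13 in footprints, and 0 to 4 and 1 to 2 in footprints per lysate RNA.

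With the animal as a block, footprints per lysate RNA had 10 genes called in each line and 0 channel genes. Replicate numbers of the 16p11.2 bulk libraries did not pair them (correlations of -0.245 to 0.100, with female 4 alone closest to its own number); with that block 14 genes were called in males and 22 in females, with 2 in the interaction, and 0 channel genes.

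The 33 genes at 1 CPM or more in wt bulk RNA-seq kept that level without each wt library, and 32 of them did in wt lysate RNA, where Cacng1 was lower and Scn7a, low in bulk RNA-seq, was above it; the alternative per coding length was not run, since no lengths were used. Footprint depth limits the comparisons that use footprints.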
